A study of Mus musculus with 12 samples.

Results

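Platr3, Platr26 and Platr6 are 3 long noncoding RNA genes of the mouse Platr series, and their levels were described here in embryonic stem cells with and without overexpressed Tnrc6a and with and without Trim71. They were chosen by symbol, with the differences between these same 12 libraries already in view, so every difference between groups is given for them as a description with no test. The deposited table listed 20529 genes, 24 of which were Platr genes, and the 21 others serve as the comparison. Platr3 and Platr26 were found by the symbol in the table. Platr6 had no symbol there and was found by its identifier, ENSMUSG00000097107, through the GENCODE M21 annotation.

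All 12 libraries came from mouse embryonic stem cells of strain 129S6/SvEvTac that carried the reporter GFP_5xT71BS and a stably transfected FLAG-Cas9::T2A::Blasticidin construct, kept on gelatin with serum and LIF. The 4 groups of 3 libraries were control cells with overexpressed Cas9 (Cas9 control), Trim71-/- cells with overexpressed Cas9 (Cas9 Trim71-/-), control cells with overexpressed Tnrc6a (Tnrc6a control) and Trim71-/- cells with overexpressed Tnrc6a (Tnrc6a Trim71-/-). The replicates were separate wells, and the labels name neither separate cell clones nor a batch, so the spread between libraries may be technical. For 9 libraries the free-text input line named other cells than the title, including Ago2-/- and Upf1-/- cells, and the groups rest on the titles and the overexpression tag.

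Pluripotency-associated transcripts, shortened to Platr, are long noncoding RNAs that were named for being expressed in undifferentiated mouse embryonic stem cells and lost as those cells differentiate. Trim71 is an RNA-binding protein of stem cells that silences messenger RNAs, and Tnrc6a, also called GW182, is the Argonaute-binding scaffold through which microRNAs silence their targets. Noncoding RNAs have no protein to report on them, so their abundance in total RNA is the readout here.

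Each of the 3 genes was annotated as a long intergenic RNA with 1 transcript, and none overlapped another annotated gene. Platr3 (ENSMUSG00000084762) lies on the plus strand at chr2:135648907-135652063 of GRCm38, with 4 exons and a transcript of 412 bases. Platr26 (ENSMUSG00000064263) lies on the same chromosome and strand at chr2:71719417-71730966, with 4 exons and 641 bases. Platr6 lies on the minus strand at chr10:21830499-21844851, with 5 exons and 1818 bases.

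The stretches around their starts are shown as a description, and no link between sequence and level was tested. Each stretch is the RefSeq window of GRCm38.p6, from 250 bases before a gene's start to 50 after it, 5′ to 3′ along the gene. Capitals mark matches to the motifs searched. The windows are chr2:135646273-135646572 on the plus strand for Platr3, chr2:71719167-71719466 on the plus strand for Platr26 and chr10:21845984-21846283 on the minus strand for Platr6.
Platr3: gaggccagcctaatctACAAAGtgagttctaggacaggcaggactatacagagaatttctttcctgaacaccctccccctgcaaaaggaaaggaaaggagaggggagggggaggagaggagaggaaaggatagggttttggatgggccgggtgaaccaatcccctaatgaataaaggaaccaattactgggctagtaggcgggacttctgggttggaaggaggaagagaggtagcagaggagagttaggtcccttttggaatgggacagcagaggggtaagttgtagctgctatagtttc
Platr26: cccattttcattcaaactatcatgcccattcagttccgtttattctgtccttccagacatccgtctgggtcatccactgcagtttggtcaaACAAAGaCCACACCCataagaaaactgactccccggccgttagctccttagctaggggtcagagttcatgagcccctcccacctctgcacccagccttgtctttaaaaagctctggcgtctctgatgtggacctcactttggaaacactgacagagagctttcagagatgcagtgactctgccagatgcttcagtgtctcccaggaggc
Platr6: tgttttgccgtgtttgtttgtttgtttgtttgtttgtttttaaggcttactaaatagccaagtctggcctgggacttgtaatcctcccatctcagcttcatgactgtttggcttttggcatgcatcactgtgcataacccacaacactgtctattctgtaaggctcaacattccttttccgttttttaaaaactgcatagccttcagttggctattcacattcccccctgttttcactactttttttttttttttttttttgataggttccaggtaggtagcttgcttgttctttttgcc

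The RefSeq start of Platr26 equalled the GENCODE start. The RefSeq start of Platr3 lay 2384 bases upstream of the GENCODE start, and that of the nearest Platr6 window lay 1182 bases upstream. The motifs searched on both strands were the POU octamer ATGCAAAT, the SOX core ACAAAG, the KLF box CCACACCC, the ESRRB element AAGGTCA and the TATA box TATAAA. The Platr3 window held the SOX core 234 bases before the start. The Platr26 window held the SOX core 159 bases and the KLF box 152 bases before the start, next to each other without overlap. None of the 5 motifs was found in the Platr6 window. Across 32851 RefSeq windows the SOX core was in 18.7%, the KLF box in 3.56%, the POU octamer in 1.74%, the ESRRB element in 4.72% and the TATA box in 13.6%. Of 13 Platr genes with a window, 6 held the SOX core. A match is a string of letters, and no binding was measured here.

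A stretch just after the RefSeq start of Platr3 resembled one just after that of Platr14, another Platr gene, which fell with Tnrc6a and without Trim71. The 2 stretches were chr2:135646551-135646572 in Platr3 and chr2:104559209-104559230 in Platr14, both on the plus strand. Their first bases lay 29 and 26 bases from the RefSeq starts, and the Platr3 stretch lies upstream of the GENCODE start.
Platr3: AAGTTGTAGCTGCTATAGTTTC
Platr14: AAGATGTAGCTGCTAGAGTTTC

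These 2 stretches were identical at 20 of 22 bases. The blastn search of windows used an e-value limit of 0.01. Each exact string was found in 1 of the 32851 windows, its own, which does not say how often such a resemblance arises. That was not tested. Among whole transcripts, Platr3 and Platr26 had no match with any other Platr gene at an e-value of 1e-05. Platr6 matched Platr28 at 98 of 122 bases in the same orientation and Platr9 at 64 of 77 bases in the opposite one. The sources used here do not say how reads from such stretches were assigned.

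The libraries held 20758151 to 31552915 counts each. Tnrc6a itself was at 131.1 to 152.0 CPM, counts scaled to library size, in the Cas9 libraries and 3197 to 3704 CPM in the Tnrc6a libraries. Trim71 RNA was at 264.1 to 317.2 CPM in the Cas9 libraries and 233.2 to 277.4 CPM in the Tnrc6a libraries, with the Trim71-/- libraries overlapping the controls in the Cas9 pair, so its RNA level does not check that label. The summed level of 5 stem cell markers was 3972 to 4017 CPM in Cas9 control, 4967 to 5048 in Cas9 Trim71-/-, 2431 to 2450 in Tnrc6a control and 3817 to 3897 in Tnrc6a Trim71-/-. The summed level of 7 of 7 genes of the 2-cell-like state was 13.6 to 16.3, 0.876 to 1.78, 340.1 to 349.4 and 126.6 to 135.8 CPM in the same order. For 8 of 8 endoderm genes it was 222.7 to 235.7, 60.0 to 68.5, 429.0 to 490.2 and 74.0 to 91.7 CPM. For 7 of 8 trophoblast genes, without Elf5, it was 53.5 to 55.1, 49.2 to 52.6, 250.6 to 285.7 and 146.1 to 149.1 CPM. For 3 of 7 fibroblast genes, without Col3a1, Dcn, Lum and Postn, it was 7.44 to 11.2, 10.8 to 11.9, 13.3 to 15.0 and 16.3 to 17.4 CPM. The part of these other cell states in the results below was not tested, and in bulk RNA fewer cells of a type and less RNA per cell cannot be told apart.

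Platr3 was highest in Cas9 control and lower in each of the other groups, with no overlap between any 2 groups. Its level was 4.49, 4.76 and 4.91 CPM in the 3 Cas9 control libraries and 2.98, 2.44 and 3.04 CPM in Cas9 Trim71-/-. It was 1.29, 1.15 and 1.43 CPM in Tnrc6a control and 0.613, 0.626 and 0.552 CPM in Tnrc6a Trim71-/-. The levels thus stepped down in the order Cas9 control, Cas9 Trim71-/-, Tnrc6a control, Tnrc6a Trim71-/-, and each step was larger than the spread of its libraries. The means were 4.72 ± 0.209, 2.82 ± 0.333, 1.29 ± 0.138 and 0.597 ± 0.0396 CPM (SD, n = 3 each). The log2 fold change without Trim71 was -0.74 (SE 0.17) with Cas9 and -1.10 (SE 0.25) with Tnrc6a. Between the Tnrc6a and Cas9 groups it was -1.87 (SE 0.18) in control cells, which is 3.65-fold lower with Tnrc6a. In Trim71-/- cells it was -2.23 (SE 0.23), which is 4.69-fold lower. The difference between these last 2 values, the interaction, was -0.36 (SE 0.30), about the size of its error.

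Platr26 stood at overlapping levels in Cas9 Trim71-/- and Cas9 control and was lower with Tnrc6a, most of all in Trim71-/- cells. Its level was 3.99, 3.29 and 4.13 CPM in Cas9 control and 4.06, 3.64 and 3.87 CPM in Cas9 Trim71-/-, and these groups overlapped. It was 1.57, 1.37 and 1.29 CPM in Tnrc6a control and 0.685, 0.515 and 0.828 CPM in Tnrc6a Trim71-/-, which overlapped neither each other nor the Cas9 groups. The means were 3.81 ± 0.453, 3.86 ± 0.210, 1.41 ± 0.141 and 0.676 ± 0.156 CPM (SD, n = 3 each). Without Trim71 the log2 fold change was 0.01 (SE 0.17) with Cas9 and -1.06 (SE 0.25) with Tnrc6a. It was -1.44 (SE 0.19) with Tnrc6a in control cells and -2.51 (SE 0.22) in Trim71-/- cells, where the level was 5.70-fold lower. The interaction was -1.07 (SE 0.30).

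Platr6 was also lower with Tnrc6a, but higher without Trim71. Its level was 2.23, 1.52 and 2.01 CPM in Cas9 control and 4.23, 3.35 and 2.90 CPM in Cas9 Trim71-/-, with no overlap. It was 0.383, 0.288 and 0.232 CPM in Tnrc6a control and 1.55, 1.40 and 1.73 CPM in Tnrc6a Trim71-/-, again with no overlap. The order was Cas9 Trim71-/-, Cas9 control, Tnrc6a Trim71-/-, Tnrc6a control, and Cas9 control and Tnrc6a Trim71-/- overlapped, at 1.92 ± 0.364 and 1.56 ± 0.168 CPM (SD, n = 3 each). The mean was 3.49 ± 0.672 CPM in the highest group and 0.301 ± 0.0761 CPM in the lowest. The log2 fold change without Trim71 was 0.86 (SE 0.20) with Cas9 and 2.36 (SE 0.30), or 5.13-fold higher, with Tnrc6a. With Tnrc6a it was -2.67 (SE 0.30), or 6.38-fold lower, in control cells and -1.17 (SE 0.21) in Trim71-/- cells. The interaction was 1.50 (SE 0.38), opposite in sign to that of Platr26.

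**Figure D1:**
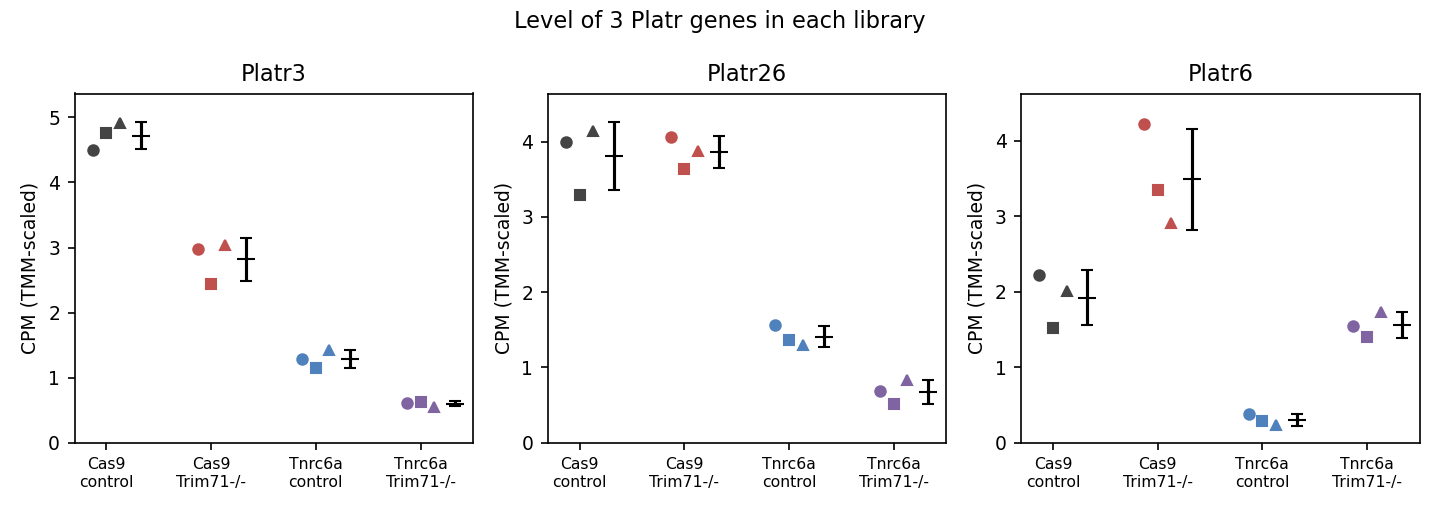
Level of Platr3, Platr26 and Platr6 in each library (vertical axis, CPM scaled by the trimmed mean of M values) by group. Symbols are replicates 1 to 3 (circle, square, triangle) and bars are mean ± SD (n = 3). Platr3 stood at 4 separate levels, Platr26 was alike in both Cas9 groups, and Platr6 was higher in each Trim71-/- group than in its control.

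These levels rest on few reads. Platr3 had 338, 214, 112 and 48 counts summed over the 3 libraries of Cas9 control, Cas9 Trim71-/-, Tnrc6a control and Tnrc6a Trim71-/-. Platr26 had 276, 293, 122 and 54 counts, and Platr6 had 140, 270, 26 and 125. The lowest single library of Platr6 held 7 counts, with an exact Poisson 95% interval of 2.81 to 14.4, and the lowest of Platr3 and Platr26 each held 14 counts, with an interval of 7.65 to 23.5. These intervals cover counting error only.

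Per length of transcript, Platr3 was the more abundant of the 3. RPKM is a count scaled to transcript length and library size, and the deposited values followed nearly the same library scaling as CPM. In Cas9 control Platr3 was at 11.4 ± 0.507 RPKM, against 5.93 ± 0.706 RPKM for Platr26 and 1.05 ± 0.200 RPKM for Platr6 (SD, n = 3 each). Among the 24 Platr genes these were ranks 5, 9 and 19 by RPKM. The highest Platr gene was Platr10 at 64.7 ± 0.905 RPKM. In Tnrc6a Trim71-/- the RPKM means of the 3 genes lay closer together, at 1.45 ± 0.0960 for Platr3, 1.05 ± 0.244 for Platr26 and 0.858 ± 0.0923 for Platr6.

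With Tnrc6a in control cells, most of the other Platr genes fell. Of the 21, 13 fell, 1 rose and 7 did not pass the test (edgeR quasi-likelihood test, Benjamini-Hochberg adjusted p under 0.05 over the 20486 genes tested). That is 61.9% lower and 4.76% higher, against 33.1% lower and 30.4% higher over all genes tested. The median log2 fold change was -0.82 for the 21 genes and -0.02 for all genes. The 3 libraries of one group lay wholly apart from the 3 of the other in all 3 members and in 15 of the 21, against 67.4% of all genes.

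The falls had a wide range of size. Platr10, the most abundant, went from 113.1 ± 1.57 CPM in Cas9 control to 44.5 ± 1.26 CPM in Tnrc6a control (SD, n = 3 each), a log2 fold change of -1.35 (SE 0.04, edgeR adjusted p = 1.12e-27). Platr7 went from 13.8 ± 0.470 to 3.54 ± 0.656 CPM, a log2 fold change of -1.96 (SE 0.12, edgeR adjusted p = 3.59e-18). Platr8 fell by 2.12 (SE 0.44) on the log2 scale from a low level of 0.857 ± 0.236 CPM. The other falls were of -1.50 for Platr5, -1.25 for Platr16, -1.19 for Platr14, -1.05 for Platr27, -0.87 for Platr21, -0.83 for Platr4, -0.82 for Platr22, -0.72 for Platr17 and -0.29 for Platr25. Platr11 passed at -0.84 (edgeR adjusted p = 0.0471), but leaving out any 1 of the 6 libraries compared took it past the threshold, with adjusted p of 0.0564 to 0.113. Platr4 and Platr14 are long noncoding RNAs whose depletion has been studied in differentiating mouse stem cells, and Platr17 and Platr25 are annotated as protein coding in GENCODE M21. The exons of Platr16 overlap Gm13230 on the same strand, which fell by 1.50 (SE 0.05), and the sources used here do not say how their reads were shared.

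Platr31 was the one Platr gene that rose with Tnrc6a. It had 3 counts over the Cas9 control libraries and 92 over the Tnrc6a control libraries. With the library scaling used for CPM, the ratio was 25.3, with an exact 95% counting interval of 8.41 to 125.2. In Trim71-/- cells Platr31 had 11 and 51 counts, a ratio of 4.37 with an interval of 2.25 to 9.30. The edgeR adjusted p was 1.16e-08 and 0.000351. Its exons lie opposite to those of Tigar, a fructose bisphosphatase gene, at 72.7 CPM on average, which moved the other way, at -0.15 and -0.30 on the log2 scale. Whether reads were counted by strand is not known here, so reads of the pair cannot be told apart. Platr31 also matched Platr25 at 121 of 127 bases in the same orientation, and how reads there were assigned is not known.

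In Trim71-/- cells Tnrc6a gave a like count, with 14 of the 21 lower, 1 higher and 6 that did not pass. Over all genes, 30.9% were lower and 32.0% higher, and the median was -0.62 for the 21 and 0.02 for all genes. All 3 members and 14 of the 21 had groups that lay wholly apart, against 65.7% of all genes. The 2 Tnrc6a comparisons share no library. Platr16 and Platr17 each fell by 1.37, Platr10 by 1.30, Platr7 by 1.25, Platr5 by 1.16, Platr14 by 1.11, Platr22 by 1.09, Platr4 by 0.88, Platr21 by 0.62, Platr27 by 0.61 and Platr8 by 1.70. Smaller or less firm falls were those of Platr12 at -0.86, Platr20 at -0.43 and Platr25 at -0.22. The Platr12 call was lost without Cas9 Trim71-/- replicate 1 or Tnrc6a Trim71-/- replicate 1 (edgeR adjusted p = 0.0773 and 0.0870), and the Platr25 call without the latter (0.0769). The Platr20 call was lost without any of 4 libraries, Cas9 Trim71-/- replicates 2 and 3 and Tnrc6a Trim71-/- replicates 1 and 2, with adjusted p of 0.0906 to 0.123.

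Without Trim71 the other Platr genes moved in both directions. With Cas9, 6 of the 21 fell, 2 rose and 13 did not pass, which is 28.6% lower and 9.52% higher against 19.1% lower and 17.1% higher over all genes. With Tnrc6a, 7 fell, 4 rose and 10 did not pass, or 33.3% and 19%, against 19% lower and 20.0% higher over all genes. The medians were -0.05 with Cas9 and -0.16 with Tnrc6a, beside -0.01 and 0.00 for all genes. Groups lay wholly apart for 2 of the 3 members and 9 of the 21 with Cas9, against 43.3% of all genes, and for 3 of 3 and 13 of 21 with Tnrc6a, against 49.4%.

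Several genes fell without Trim71, the direction in which Platr3 differed. With Cas9 they were Platr5 at -1.30 (SE 0.19), Platr27 at -1.15 (SE 0.12), Platr7 at -0.86 (SE 0.11), Platr14 at -0.81 (SE 0.11), Platr16 at -0.70 (SE 0.09) and Platr17 at -0.36 (SE 0.12), with edgeR adjusted p from 3.68e-11 for Platr27 to 0.0145 for Platr17. The Platr17 call was lost without replicate 1 of Cas9 control (adjusted p = 0.0763) or of Cas9 Trim71-/- (0.192). With Tnrc6a, which shares no library with the Cas9 pair, the falls were Platr17 at -0.999, Platr5 at -0.96, Platr16 at -0.81, Platr14 at -0.73, Platr27 at -0.71, Platr22 at -0.55 and Platr30 at -1.23. Of these, the Platr5 call was lost without Tnrc6a control replicate 3 (edgeR adjusted p = 0.0532) and that of Platr22 without Tnrc6a Trim71-/- replicate 1 (0.127). The Platr30 call was lost without replicate 1 or 3 of Tnrc6a Trim71-/- (0.0899 and 0.0566), and its exons lie opposite to Gm26553.

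A few genes rose without Trim71, the direction in which Platr6 differed. Platr15 rose by 1.33 (SE 0.27, edgeR adjusted p = 0.000106) with Cas9, from 0.843 ± 0.199 to 2.09 ± 0.372 CPM, and by 0.89 (SE 0.25, 0.00453) with Tnrc6a, from 1.01 ± 0.291 to 1.86 ± 0.416 CPM (SD, n = 3 each). Platr28 rose by 0.50 (SE 0.17, 0.0213) and 0.57 (SE 0.18, 0.010). It has a stretch like Platr6, but also stretches like Platr4, Platr5, Platr9 and Platr21. Of these, Platr5 fell without Trim71, and Platr4, Platr9 and Platr21 did not pass. With Tnrc6a, Platr13 at 0.97 (0.0493) and Platr10 at 0.12 (0.0314) also passed. The Platr13 call was lost in limma-voom (0.0610), DESeq2 (0.0942), the replicate block (0.0603) and 2 other scalings (0.0521 and 0.0566). That of Platr10 was lost with relative log expression factors (0.101) and DESeq2 (0.125), so that the 4 genes higher with Tnrc6a became 2 under either of these, and 1 without Tnrc6a control replicate 2 or Tnrc6a Trim71-/- replicate 2. Platr13 and Platr15 are identical at 263 of 277 bases of a shared stretch, so reads there may be split between them. Single libraries also decided several of these calls. Platr15 with Tnrc6a was lost without Tnrc6a Trim71-/- replicate 2 (edgeR adjusted p = 0.0553). Platr28 was lost without Cas9 control replicate 2 (0.173), Cas9 Trim71-/- replicate 3 (0.138) or, with Tnrc6a, Tnrc6a control replicate 2 (0.0662). Platr13 and Platr10 were each lost without any of 5 libraries, with edgeR adjusted p of 0.0789 to 0.210 and 0.0585 to 0.246. Platr13 kept its call without Tnrc6a Trim71-/- replicate 1 and Platr10 without Tnrc6a control replicate 3. Of the remaining genes, Platr9 passed in no comparison.

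**Figure D2:**
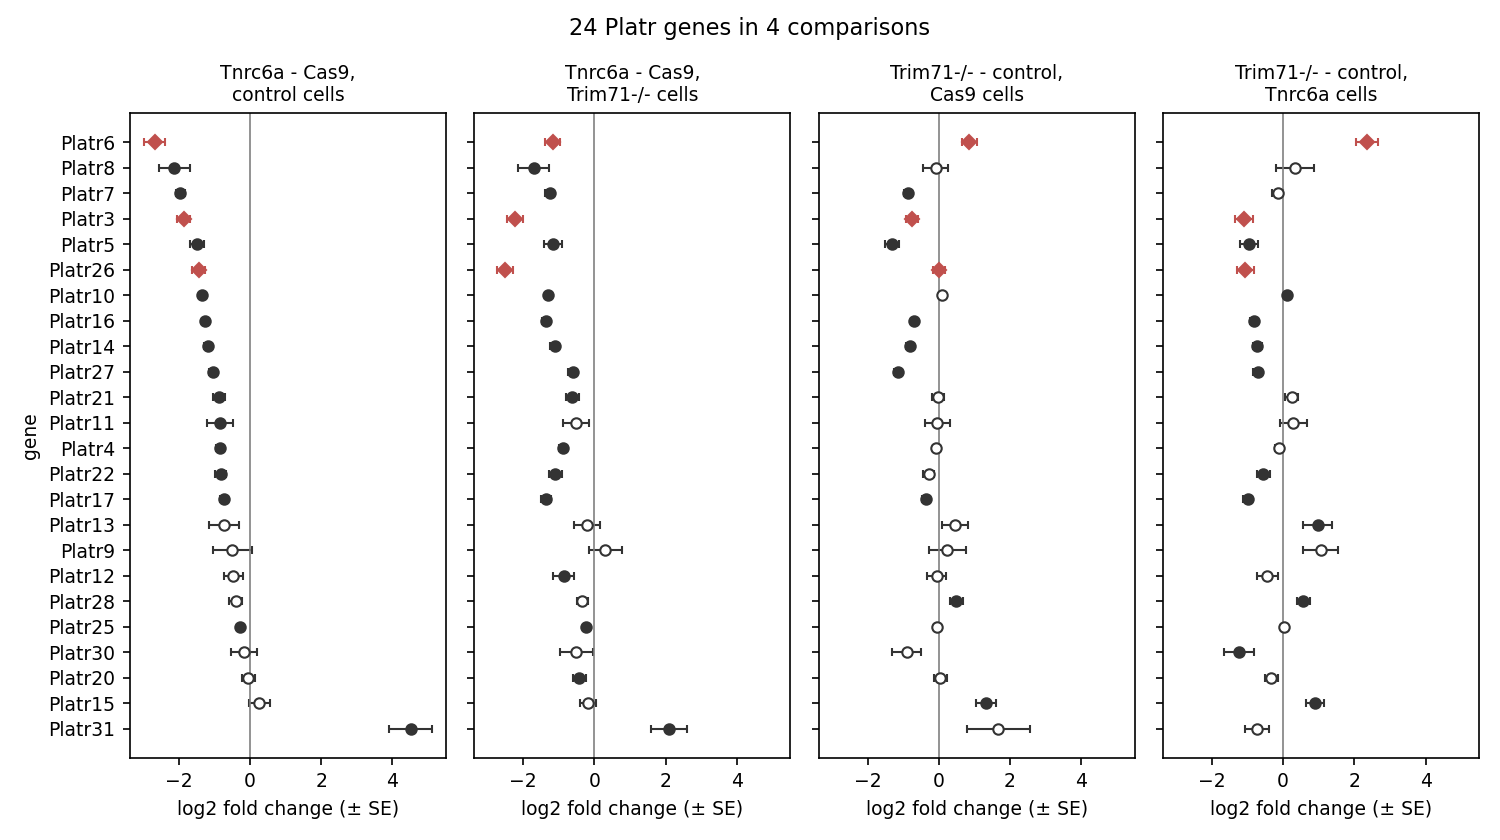
Log2 fold change ± SE of the 24 Platr genes (rows, ordered by the leftmost panel) in 4 comparisons (horizontal axis). Red diamonds are Platr3, Platr6 and Platr26, which carry no test; black circles are the other genes, filled where the edgeR adjusted p is under 0.05. Most genes lie left of 0 in the 2 Tnrc6a panels and on both sides in the 2 Trim71-/- panels; Platr31, at the bottom, rests on 3 counts in Cas9 control.

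The interaction, which asks whether the Tnrc6a difference is the same in Trim71-/- as in control cells, passed for 1 of the 21 genes upward and 1 downward, against 4.68% upward and 2.25% downward over all genes. The upward one was Platr7, at 0.71 (SE 0.18, edgeR adjusted p = 0.0113), and the downward one Platr17, at -0.64 (SE 0.18, 0.0225). Platr7 went from 13.8 ± 0.470 to 7.62 ± 0.690 CPM without Trim71 with Cas9, and was 3.54 ± 0.656 and 3.18 ± 0.167 CPM with Tnrc6a. Platr17 had 11.7 ± 0.653, 9.25 ± 1.54, 7.12 ± 1.27 and 3.56 ± 0.342 CPM in the order of groups above (SD, n = 3 each). The Platr7 call was lost without Tnrc6a control replicate 1 (adjusted p = 0.0955) and that of Platr17 without any of 5 libraries (0.0505 to 0.0899).

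RefSeq gives Platr18 as another name of Lncenc1, a long noncoding RNA of naive stem cells. It was not counted among the 24, since neither the table nor GENCODE M21 gives it a Platr symbol. Its level was 99.7 ± 3.84 CPM in Cas9 control, 15.5 ± 0.351 in Cas9 Trim71-/-, 54.6 ± 1.05 in Tnrc6a control and 6.87 ± 0.883 in Tnrc6a Trim71-/- (SD, n = 3 each). On the log2 scale and without Trim71 it fell by 2.68 (SE 0.06, edgeR adjusted p = 1.77e-32) in the Cas9 libraries and fell by 2.99 (SE 0.07, 1.28e-32) in the Tnrc6a libraries. Overexpressed Tnrc6a went with log2 fold changes of -0.87 in control and -1.17 in Trim71-/- cells. Its order of groups differed from that of Platr3, since Tnrc6a control stood above Cas9 Trim71-/-.

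Other stem cell long noncoding RNAs were spread over both directions. Of 23 tested of 26 listed, 12 fell and 6 rose with Tnrc6a in control cells (median -0.25), against 33.1% lower and 30.4% higher over all genes. In Trim71-/- cells 11 fell and 6 rose (-0.10), against 30.9% and 32.0%. Without Trim71, 8 fell and 6 rose with Cas9 (0.04), against 19.1% and 17.1%, and 8 fell and 5 rose with Tnrc6a (-0.13), against 19% and 20.0%. The interaction passed for 1 upward and 2 downward (0.06), against 4.68% and 2.25%. Halr1, beside the Hoxa cluster, fell with Tnrc6a by 1.77 (SE 0.11) in control and 1.89 (SE 0.12) in Trim71-/- cells. H19, an imprinted RNA, rose by 1.03 and 1.75 with Tnrc6a and fell by 2.39 and 1.67 without Trim71. Xist, the RNA of the inactive X chromosome, rose by 1.29 and 1.57 with Tnrc6a at a mean of 0.762 CPM, and Kcnq1ot1, an imprinted antisense RNA, rose by 1.28 in control cells (edgeR adjusted p from 3.98e-08 to 0.00146 for these 3 values).

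Most RNAs that encode the listed pluripotency factors fell with Tnrc6a. Of 18, 17 fell and 1 rose in control cells (median -0.61), against 33.1% lower and 30.4% higher over all genes. In Trim71-/- cells 14 fell and 2 rose (-0.31), against 30.9% and 32.0%. Tcl1, an Akt coactivator, fell by 1.32 (SE 0.07), the nuclear receptor Nr0b1 by 1.17 (SE 0.04) and the POU factor Pou5f1, also called Oct4, by 1.05 (SE 0.04, edgeR adjusted p = 4.03e-25) in control cells. Without Trim71, 10 rose and 4 fell with Cas9 (0.19), against 17.1% higher and 19.1% lower over all genes, and 14 rose and 4 fell with Tnrc6a (0.41), against 20.0% and 19%. The zinc finger factor Zfp42, also called Rex1, rose by 0.84 (SE 0.03) with Cas9 and 1.21 (SE 0.03) with Tnrc6a. Dppa5a, an RNA-binding protein of stem cells, went the other way, at -0.84 (SE 0.04) and -0.78 (SE 0.04), and so did Dppa2, at -0.57 (SE 0.04) and -0.80 (SE 0.04). The interaction passed for 11 upward and 1 downward (0.27), against 4.68% and 2.25%, with Esrrb the largest at 0.50 (SE 0.05).

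The genes beside the 3 members did not share 1 pattern. They are the nearest genes of the deposited table on each side, and annotated genes absent from it may lie nearer. On one side of Platr6, at 37.3 kb, lies Sgk1, which encodes the serum- and glucocorticoid-regulated kinase. Sgk1 was at 242.6 ± 9.78 CPM in Cas9 control, 602.2 ± 14.3 in Cas9 Trim71-/-, 122.8 ± 0.904 in Tnrc6a control and 462.9 ± 6.64 in Tnrc6a Trim71-/- (SD, n = 3 each). It rose without Trim71 by 1.31 (SE 0.04) with Cas9 and 1.91 (SE 0.04, edgeR adjusted p = 2.01e-35) with Tnrc6a. Overexpressed Tnrc6a went with falls by 0.98 (SE 0.04) in control and 0.38 (SE 0.04) in Trim71-/- cells, and the interaction was 0.60 (SE 0.05, 1.43e-11). All 5 signs were those of Platr6, though the order of groups differed, since Sgk1 in Tnrc6a Trim71-/- stood above Cas9 control. On the other side, at 208.1 kb, 1700020N01Rik passed in no comparison at 0.501 CPM on average.

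Beside Platr3, at 6.9 kb and on the same strand, lies Plcb4, a phospholipase C gene. It was at 35.8 ± 1.09, 30.9 ± 3.37, 18.2 ± 1.61 and 20.2 ± 1.53 CPM in Cas9 control, Cas9 Trim71-/-, Tnrc6a control and Tnrc6a Trim71-/- (SD, n = 3 each). It fell with Tnrc6a by 0.97 (SE 0.07, edgeR adjusted p = 4.5e-15) in control and 0.61 (SE 0.08, 2.46e-09) in Trim71-/- cells. Without Trim71 it fell by 0.21 with Cas9 (0.0175), and the value with Tnrc6a was 0.15 (0.133), where Platr3 was at -1.10. Plcb1, 173.6 kb to the other side, rose with Tnrc6a by 1.50 (7.33e-05) and 1.32 (0.000651) from 0.521 ± 0.219 CPM in Cas9 control.

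Beside Platr26, at 14.6 kb, lies Itga6, the integrin alpha 6 gene. It was at 212.4 ± 10.1, 197.8 ± 13.0, 154.4 ± 4.93 and 144.5 ± 3.15 CPM in the same order of groups. It fell with Tnrc6a by 0.46 (SE 0.04, edgeR adjusted p = 1.57e-12) and 0.45 (SE 0.04, 2.74e-12), and its interaction was 0.00 (SE 0.06), where that of Platr26 was -1.07. Dlx2, a homeobox gene 172.7 kb away, rose with Tnrc6a by 1.85 (7.74e-06) and 1.28 (0.00379) and fell without Trim71 by 0.90 with Tnrc6a (0.0130).

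**Figure D3:**
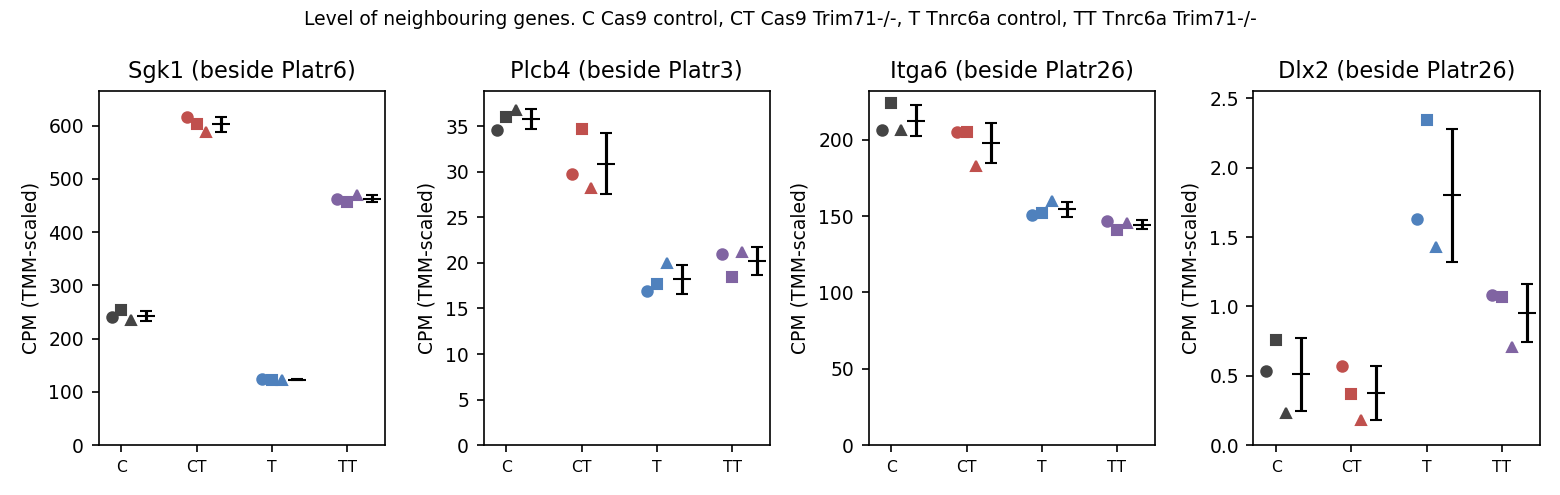
Level (vertical axis, CPM scaled by the trimmed mean of M values) of Sgk1, Plcb4, Itga6 and Dlx2 in each library by group, with C for Cas9 control, CT for Cas9 Trim71-/-, T for Tnrc6a control and TT for Tnrc6a Trim71-/-. Symbols are replicates 1 to 3 and bars are mean ± SD (n = 3). Sgk1 is high in both Trim71-/- groups, Plcb4 and Itga6 are lower with Tnrc6a, and Dlx2 is higher with it.

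The genes whose levels varied most alike over the 12 libraries were ranked among genes of at least 1 CPM on average. The measure was the root mean square difference of log2(CPM + 0.1), each gene centred on its own mean, so average levels were not compared. Values share library and depth, so the ranking is a description. For Platr3 they were Nphs1 (nephrin) at 0.192, Lin28a at 0.218, Zic5 at 0.245, Camkv at 0.266 and Zfp988 at 0.270, against a median of 1.07 over all genes compared. Lin28a, the RNA-binding protein that holds back let-7 microRNAs in stem cells, had log2 fold changes of -0.69 and -0.91 without Trim71 and -1.45 and -1.67 with Tnrc6a. For Platr26 they were Ccnd2 (cyclin D2) at 0.322, Platr3 at 0.333, Lin28a at 0.336, and Slc7a3, a cationic amino acid transporter, and Halr1 at 0.344 each, against a median of 1.01. Seen from Platr3, Platr26 was at rank 15.

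Platr6 had another set of nearest genes. They were Inhbb, the inhibin beta B subunit, at 0.294, 2310043M15Rik at 0.328, Nlrp4a at 0.352, Sema5b, a semaphorin, at 0.365 and Fgf17, a fibroblast growth factor, at 0.398, against a median of 1.18. Inhbb, at 262.5 CPM on average, had log2 fold changes of 1.14 and 2.12 without Trim71 and -1.86 and -0.88 with Tnrc6a. Platr6 was at rank 12663 from Platr3, with a difference of 1.24, and Platr26 was at rank 6553 from Platr6, with 1.12. By this measure Platr3 and Platr26 lay near each other. Platr6 lay farther from Platr3 than the median gene did, at 1.24 against 1.07. From Platr26 it lay at 1.12, against a median of 1.01 seen from Platr26 and 1.18 seen from Platr6.

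**Figure D4:**
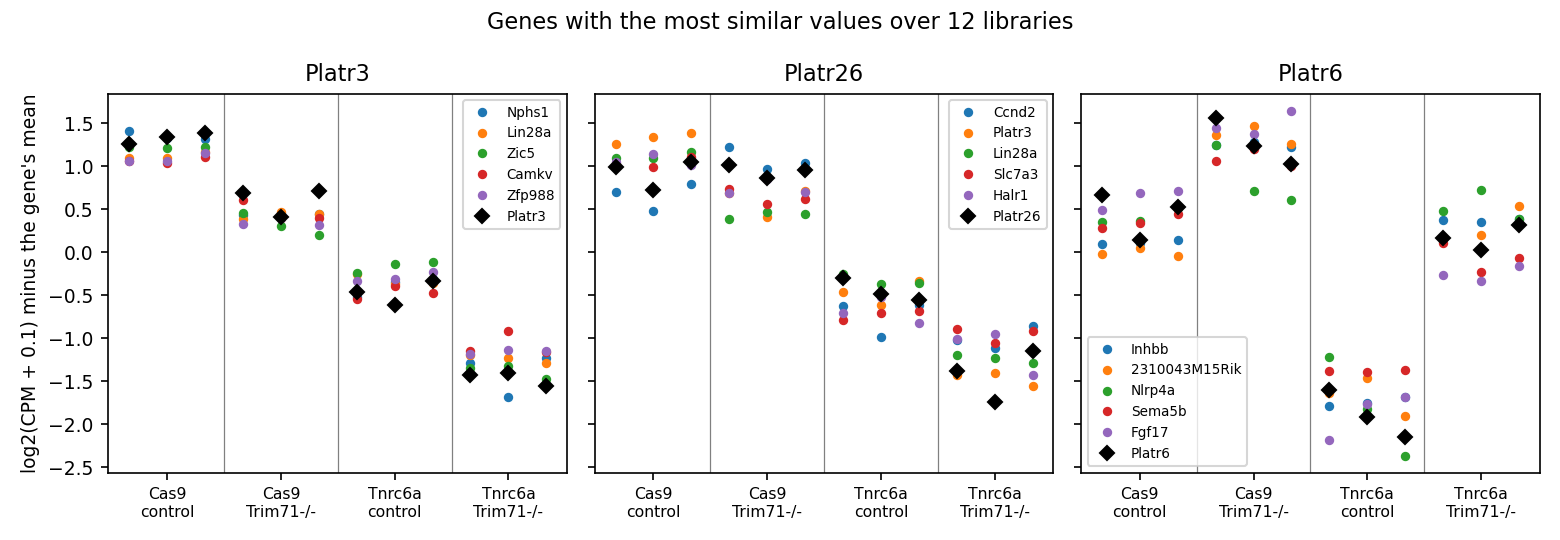
Log2(CPM + 0.1) minus the gene's own mean (vertical axis) in each of the 12 libraries, in 4 groups of 3, for Platr3, Platr26 and Platr6 (black diamonds) and the 5 genes with the smallest root mean square difference to each (coloured points). The points of Platr3 step down over the 4 groups towards Tnrc6a Trim71-/-. Those of Platr26 are alike in both Cas9 groups and lower in the Tnrc6a groups, lowest in Tnrc6a Trim71-/-. Those of Platr6 are lowest in Tnrc6a control.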

How the data were processed

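Total RNA of 12 libraries was sequenced as stranded TruSeq libraries. Per the submitters' processing notes, bcl2fastq 2.20 and STAR 2.7.3a were used; which tool counted the reads, with which strand setting and annotation, is not given in these sources. Counts are as the authors deposited them, raw and unscaled, and were the values tested. The authors also deposited RPKM values and a gene length, per the file headers. The header of the length names quasr, which does not by itself say which tool counted the reads. RPKM was used to compare levels between genes and, as an alternative, for the log2 fold changes of the 3 members. The lowest gene held 46 counts over all libraries.

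Counts were fitted in R 4.3.3 with edgeR 4.0.16 (filterByExpr by group, which kept 20486 genes, factors by trimmed mean of M values, glmQLFit robust, 1 mean per group over all 12 libraries). Tests were two-sided, adjusted by Benjamini-Hochberg over all genes tested, with a threshold of 0.05; the script was tested on simulated data. CPM used the same factors. Alternatives were other scaling factors, no filter, a stricter one of 1 CPM in 6 libraries, limma-voom (limma 3.58.1), DESeq2 1.42.0, fits of only the groups compared, a replicate block and leaving out each library. The libraries held 20758151 to 31552915 counts, and intervals are exact Poisson or, for ratios, exact binomial.

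Genes were named by rule. These were the 3 members and other Platr genes called in a comparison or at 1 CPM or more on average. Up to 4 of the largest changes per comparison were named in 2 lists, stem cell long noncoding RNAs and pluripotency factors. Of the former list, Evx1os, Rmst and Mir290a were not tested. The nearest neighbours among genes of the deposited table and the 5 most similar genes were also named. Outside the rule, and after values were seen, Lncenc1 was given in full for its RefSeq synonym and Platr9 was named as the Platr gene called nowhere. Members and lists were chosen with earlier results of these data known. Annotation was GENCODE M21 on GRCm38, which lists 30 Platr genes; 6 of them (Platr1, Platr2, Platr19, Platr23, Platr29 and Platr32) were not analysed here. Of the 24 Platr genes, 14 carried a Platr symbol in the table, Platr17 stood as Smim40, and the others were matched by identifier. Sequences are from RefSeq windows of GRCm38.p6 and similarity is from blastn.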

Additional observations from a re-analysis of the deposited data

Results flagged for a closer look

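For 4 genes among the Platr genes and the neighbours of the 3 members, the Tnrc6a log2 fold change differed between Trim71-/- and control cells by the interaction test of edgeR. They were Platr7, with a difference of 0.71 (adjusted p = 0.0113), Platr17, with -0.64 (0.0225), the Platr3 neighbour Plcb4, with 0.36 (0.0283), and the Platr6 neighbour Sgk1, with 0.60 (1.43e-11). The other 4 of the 6 neighbouring genes did not pass this test. Among the listed genes named, the difference was 0.50 for Esrrb, 0.38 for Tcl1, 0.37 for Zfp42, 0.36 for Sox2 and 0.30 for Nr0b1. It was -0.22 for Dppa2, -0.78 for Kcnq1ot1 and -0.31 for Lncenc1. The edgeR adjusted p of these genes ran from 2.58e-10 for Esrrb to 0.0488 for Kcnq1ot1.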

How the results depend on the processing

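The 15 log2 fold changes of Platr3, Platr6 and Platr26 moved by less than the spread between replicates in every alternative run. A mean of 3 libraries mostly moves by less than that spread when 1 is left out, so those runs are a weak check. The deposited RPKM followed nearly the same library scaling as the main fit, so that run is no separate check of scaling. Leaving out 1 library at a time gave, for the difference with Tnrc6a in control cells, -1.95 to -1.77 for Platr3, -2.86 to -2.51 for Platr6 and -1.53 to -1.38 for Platr26. Platr26 without Trim71 with Cas9 ran from -0.07 to 0.08. The counts of other Platr genes called with Tnrc6a were 11 to 14 in control and 12 to 15 in Trim71-/- cells, and 7 to 9 and 8 to 12 without Trim71 with Cas9 and with Tnrc6a; of the last, 1 to 4 were higher. The interaction count of 2 was 1 in limma-voom, and 1 to 2 when single libraries were left out; the cause was not tested. The replicate block gave counts of 8, 10, 13, 15 and 2 in the order Trim71-/- with Cas9, with Tnrc6a, Tnrc6a in control cells, in Trim71-/- cells and interaction. Replicate numbers did not pair the samples, since 18 same-number correlations ran from -0.232 to 0.145 and 2 of 12 libraries correlated best with their own number. Other scaling moved the median of all genes by at most 0.0409. The filter of at least 1 CPM in 6 libraries left 15 of the 21 genes tested. Among the 3 members, the lowest summed count was 26, of Platr6 in Tnrc6a control, and among the other Platr genes it was 3, of Platr31 in Cas9 control.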
